A study of Mus musculus with 136 samples.

Results

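The genes Nfkb1, Rel and Rela, which encode 3 of the 5 NF-kB subunits of the mouse, were taken by symbol from a table of 15196 genes measured in 113 chromatin and 23 polyA RNA libraries. Every library gave a value for each of the 3 genes. Nfkb2 and Relb, the genes of the other subunits, were not analysed here. In the mm9 build, and per the deposited table, Nfkb1 (NM_008689) lies on chromosome 3 from 135247618 to 135354511, Rel (NM_009044) on chromosome 11 from 23641728 to 23670970, and Rela (NM_009045) on chromosome 19 from 5637540 to 5648134. These are whole gene spans of 106.9, 29.24 and 10.6 kb with introns included, and no other gene of the table overlaps them.

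NF-kB proteins pair into dimers that bind kappaB sites in DNA through a shared Rel homology domain. In resting macrophages inhibitory IkB proteins hold the dimers in the cytoplasm, and signals from TLR4, the receptor for lipid A of bacterial endotoxin, or from TNF receptors activate the IkB kinases, which mark IkB for destruction. Rela (p65) and Rel (c-Rel) carry domains that activate transcription, whereas Nfkb1 encodes p105, which is shortened to p50, a subunit without such a domain. p105 itself also restrains NF-kB and holds the kinase Tpl2, which acts upstream of ERK. Nuclear IkB proteins, among them IkBz (Nfkbiz), Bcl3 and IkBNS (Nfkbid), bind p50-containing dimers in the nucleus.

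The study addressed the part of p50 and of the nuclear IkB proteins in macrophage activation. Bone marrow-derived macrophages were grown for 6 days in 8% M-CSF from wild-type mice (C57/B16 in the labels) or from mice labelled Nfkb1-/-, Nfkbiz-/-, Nfkbid-/- or Bcl3-/-, with ages not given. RNA held on chromatin, which is largely RNA in the course of transcription, was sequenced at 0, 0.5, 1, 2 and 6 h of lipid A, with 3 libraries per genotype and time in the Nfkb1 and Nfkbid series and 2 in the Nfkbiz and Bcl3 series. Each knockout had its own wild type. Further chromatin libraries, 1 per condition, came from wild-type cells given TNFa (0, 0.5, 1, 2 and 6 h) and from wild-type cells pretreated with DMSO or an ERK inhibitor (0, 15, 30 and 60 min of lipid A). PolyA RNA was sequenced, with 1 library per condition, in wild-type cells given lipid A or TNFa for up to 6 h and in control cells and cells overexpressing IkBz at 0 h and after 2 h of TNFa or lipid A. It was also sequenced in macrophages called J2 (a name the labels do not explain) at 0 and 2 h of lipid A, wild type and Nfkb1-/- with 1 library each and Nfkb1-/-, Nfkb2-/- with 2. The labels state neither which part of a gene each knockout removed nor how IkBz was overexpressed, and nothing states that replicates came from separate mice. The p-values therefore measure the spread between these libraries, which may be technical.

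Chromatin libraries held 7.86 to 45.3 M reads (median 28.8), as recovered from the steps between their values. These depths put 681 to 91374 reads on Nfkb1, 112 to 19269 on Rel and 142 to 14682 on Rela in each chromatin library, so read counting was a small part of the error. Replicate 1 of the Nfkbid series stood apart in both genotypes: the nuclear RNAs Malat1 and Rmrp lay at 6.92 to 19.4 and at no more than 0.673 RPKM there, against 229.6 to 2863 and 328 to 50173 RPKM in all other chromatin libraries. In the 14 polyA libraries of J2 and IkBz overexpression they lay at 27.9 to 138 and 0.553 to 32.2 RPKM. The other polyA libraries held 125 to 327 RPKM of Malat1 and 110 to 182 of Rmrp. These Nfkbid libraries, labelled nuclear RNA, were kept with the chromatin libraries in the fits. The cause of their values was not tested. Replicate 1 of the Nfkb1 series was the shallowest, at 7.86 to 16.2 M reads, with Rmrp at 9446 to 50173 RPKM. The summed level of 4 macrophage markers (Csf1r, Lyz2, Fcgr1 and Mertk) was 8.25 to 3179.6 RPKM in chromatin and 3032 to 16831 RPKM in polyA RNA. Summed lymphocyte markers reached at most 0.711 and 3.24 RPKM. Summed granulocyte markers reached 42.3 RPKM in chromatin and 204 RPKM in polyA RNA. In such bulk samples fewer cells of a type and less RNA per cell cannot be told apart.

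In wild-type macrophages lipid A raised chromatin RNA of all 3 subunit genes within 0.5 h, and the 3 genes then parted. Rela was highest at 0.5 h, Nfkb1 climbed on to 1 h, and Rel stayed high from 0.5 to 2 h. Levels are given in RPKM, reads scaled to the length of the gene span and to the depth of the library. Each chromatin value averages over a whole span, and the part of span length in the timing of the 3 genes was not tested. Differences are in log2(RPKM + 0.5), with the standard error after the ± sign. A gene was called changed at an adjusted p under 0.05 (limma, Benjamini-Hochberg over the 5893 genes tested).

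Nfkb1, the gene of p105 and p50, lay at 1.33, 2.32 and 2.65 RPKM at 0 h (lowest, median and highest of 10 libraries). The same 3 values were 2.25, 8.75 and 15.2 RPKM after 0.5 h and 4.30, 19.7 and 27.2 after 1 h. They were 9.35, 11.3 and 12.3 RPKM after 2 h and 4.67, 6.63 and 8.29 after 6 h. From 0 to 0.5 h Nfkb1 went up in 9 of 10 libraries, the exception being replicate 1 of the Nfkbid series. At 1, 2 and 6 h every library was above every unstimulated one. The peak fell at 1 h in 8 of 10 libraries and at 2 h in the other 2, which were replicate 1 of the Nfkb1 series and of the Nfkbid series. Against 0 h Nfkb1 rose by 1.61, 2.64, 2.06 and 1.38 at the 4 later times, each ± 0.23 (adjusted p 8.1e-08, 2.2e-13, 1.5e-10 and 1.7e-06).

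Rel, the gene of c-Rel, lay at 0.824, 2.30 and 2.55 RPKM at 0 h. After 0.5 h the values were 2.59, 11.9 and 19.7 RPKM, after 1 h 5.62, 15.2 and 17.9, after 2 h 5.77, 12.4 and 15.3, and after 6 h 1.90, 6.06 and 12.9. Rel went up from 0 to 0.5 h in all 10 libraries, and the peak fell at 1 h in 6, at 0.5 h in 3 and at 2 h in 1. The rises of Rel were 2.14, 2.51, 2.28 and 1.35, each ± 0.26 (adjusted p 1.6e-09, 2.1e-11, 2.2e-10 and 1.7e-05).

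Rela, the gene of p65, lay at 2.75, 3.10 and 13.5 RPKM at 0 h. After 0.5 h the values were 9.81, 12.9 and 21.5 RPKM, after 1 h 6.30, 7.72 and 34.5, after 2 h 5.29, 6.94 and 34.5, and after 6 h 3.21, 4.16 and 15.4. The highest value at every time came from replicate 1 of the Nfkbid series. Without that library the ranges were narrow, 2.75 to 3.43 RPKM at 0 h and 9.81 to 13.7 at 0.5 h, and the peak fell at 0.5 h in 9 of 9. Rela rose by 1.72 ± 0.25 at 0.5 h, 1.19 ± 0.25 at 1 h and 1.07 ± 0.25 at 2 h (adjusted p 1.4e-07, 7.8e-05 and 0.00031). At 6 h the difference was 0.33 ± 0.25 (adjusted p 0.27). It was 0.35 ± 0.09 without replicate 1 of the Nfkbid series (adjusted p 0.0012, when 72.6% of genes were called in either direction) and 0.33 ± 0.11 with the replicate as a block (adjusted p 0.0054, 78% called).

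All 3 members were called higher at 0.5, 1 and 2 h, when 8.38%, 10.2% and 14% of all genes tested were called higher, and 2 of 3 at 6 h, when 12.9% were. The median gene moved the other way, by -0.47, -0.39, -0.40 and -0.35 at the 4 times. With each library centred on its median the rises were larger: 3.13 for Nfkb1, 2.99 for Rel and 1.68 for Rela at 1 h, and 0.74 for Rela at 6 h (adjusted p 0.0026). Within single series the 1 h rise was 1.95 to 3.13 for Nfkb1, 2.41 to 2.61 for Rel and 1.09 to 1.36 for Rela. The lowest rise of Nfkb1 was that of the Nfkbid series, where the adjusted p was 0.084 for Nfkb1, 0.053 for Rel and 0.74 for Rela.

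**Figure D1:**
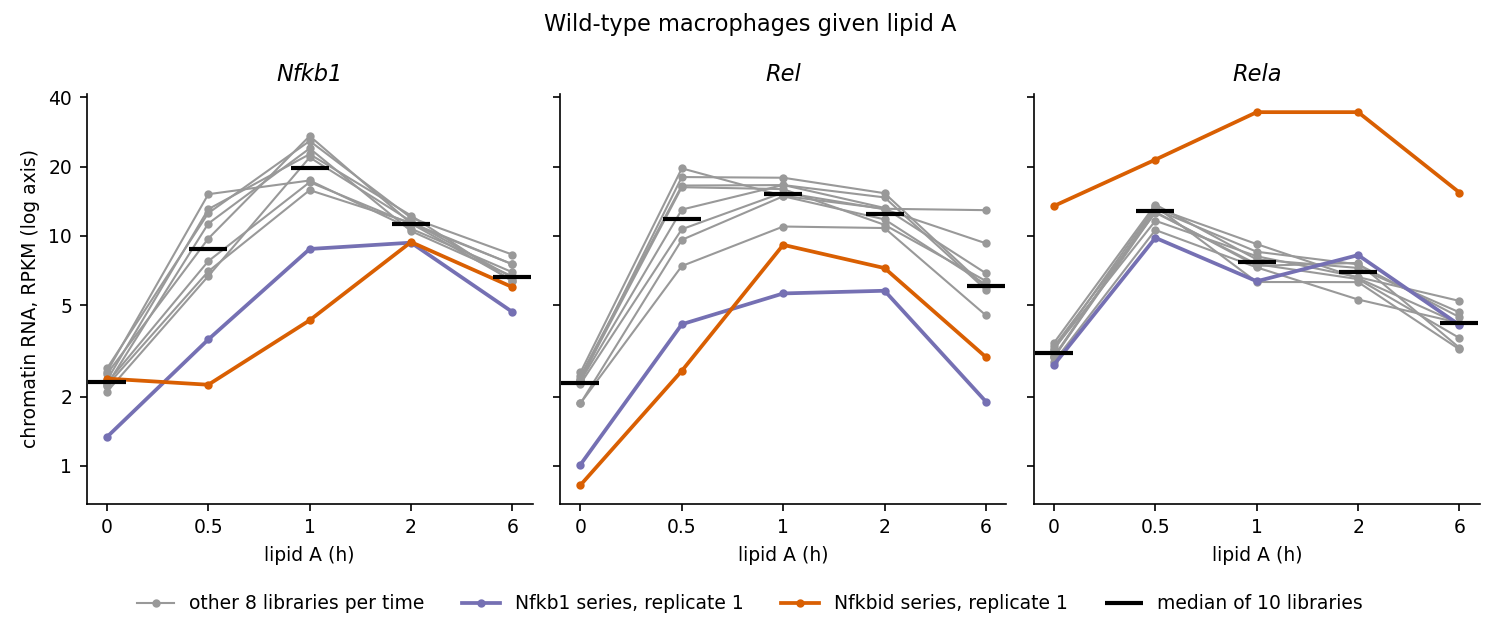
Chromatin RNA of Nfkb1, Rel and Rela in 10 wild-type libraries per time of lipid A, in RPKM on a log axis; lines join libraries with the same series and replicate number, and black bars are medians. The median of Nfkb1 peaks at 1 h (19.7 RPKM) and that of Rela at 0.5 h (12.9 RPKM), and replicate 1 of the Nfkbid series lies above all others for Rela.

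The steps between successive times were fitted for each gene alone, and the steps of the 3 genes were not tested against each other. From 0.5 to 1 h Nfkb1 rose in 10 of 10 libraries, by 1.03 ± 0.23 (adjusted p 0.00059, when 13.9% of genes were called higher). Rela was lower at 1 h than at 0.5 h in 9 of 10 libraries, with a difference of -0.52 ± 0.25 (adjusted p 0.13, when 11.4% were called lower). It was -0.66 without replicate 1 of the Nfkbid series (adjusted p 1.9e-07, 52.5% called in either direction) and -0.52 with the replicate block (adjusted p 7.7e-05, 55.6% called). Rel differed by 0.36 ± 0.26 over the same step (adjusted p 0.35, and 0.019 with the block). From 1 to 2 h Nfkb1 differed by -0.58 ± 0.23 (adjusted p 0.053, when 12.7% were called lower). Its adjusted p was 0.0052 with the block (53.3% called in either direction), and without replicate 1 of the Nfkbid series the difference was -0.76 (adjusted p 0.00016, 50.2% called). From 2 to 6 h all 3 genes fell in 10 of 10 libraries, Nfkb1 by 0.68 on the log2 scale, Rel by 0.93 and Rela by 0.73 (adjusted p 0.027, 0.0059 and 0.030, when 8.43% of genes were called lower). Those calls were lost in 8, 1 and 10 of 20 alternative fits.

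The order of the 3 levels changed over the course. At 0 h Rela was the highest of the 3 in all 10 libraries, with a ratio of Nfkb1 to Rela of 0.177 to 0.829 and of Rel to Rela of 0.0611 to 0.829. Nfkb1 and Rel were close, at a ratio of 0.924 to 2.91 (median 1.08). At 0.5 h Rel exceeded Nfkb1 in all 10 libraries (ratio of Nfkb1 to Rel 0.625 to 0.948). At 1 h, without replicate 1 of the Nfkbid series, Nfkb1 exceeded Rela (ratio 1.38 to 3.44) and Rel (1.15 to 1.63) in 9 of 9 libraries, while in that replicate the ratios were 0.124 and 0.470. By 6 h the ratio of Nfkb1 to Rel was 0.537 to 2.45, so these neighbours did not differ beyond their spread.

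The promoters of Rel and Rela are printed from RefSeq in build GRCm38.p6, from 250 bases before to 50 after the start site and read along the gene. The promoter set used held no entry for Nfkb1, so its promoter is not printed. Capitals mark matches to the canonical kappaB consensus on either strand. Rel is chr11:23770920-23771219 on the minus strand and Rela chr19:5637291-5637590 on the plus strand.
Rel: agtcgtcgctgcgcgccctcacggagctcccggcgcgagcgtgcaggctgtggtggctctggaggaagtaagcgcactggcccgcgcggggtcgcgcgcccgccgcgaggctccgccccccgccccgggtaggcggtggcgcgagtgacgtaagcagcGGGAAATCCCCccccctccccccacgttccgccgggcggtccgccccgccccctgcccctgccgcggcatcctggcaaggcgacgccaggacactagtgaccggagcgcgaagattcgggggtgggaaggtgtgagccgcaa
Rela: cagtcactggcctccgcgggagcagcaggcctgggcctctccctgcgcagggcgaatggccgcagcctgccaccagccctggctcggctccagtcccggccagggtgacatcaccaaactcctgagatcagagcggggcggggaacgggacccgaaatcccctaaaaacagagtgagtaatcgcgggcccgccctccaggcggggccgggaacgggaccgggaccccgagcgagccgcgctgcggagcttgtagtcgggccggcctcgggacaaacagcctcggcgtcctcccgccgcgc
The Rel window held GGGAAATCCC, which starts 92 bases before the start site and matches the consensus on both strands, with a further match on the minus strand that overlaps it by all but 1 base. The Rela window held no match to the consensus. Of 32544 such promoters of 300 bases, 8.49% held at least 1. A looser pattern, GGG followed by any 5 bases and CC, matched 5 times in the Rel window and 4 times in the Rela window, counting both strands and overlaps, and 51.0% of all promoters held it. These are matches of letters and not measured sites.

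Among genes of the pathway that lead to and from these subunits, 27 of the 57 listed were tested. At 1 h of lipid A 12 of the 27 were called higher, the 3 members among them, and 7 lower, when 10.2% of all genes were called higher and 44% lower. At 6 h the counts were again 12 and 7, beside 12.9% and 42% of all genes. The list's median difference was 0.20 at 1 h and 0.60 at 6 h, against -0.39 and -0.35 over all genes. Nfkbia, the gene of the inhibitor IkBa, rose by 4.33 at 1 h and 3.74 at 6 h, and Tnip3, a partner of the deubiquitinating regulator A20, by 3.61 and 4.33. The lowest at 1 h were Tab1 (-1.74) and Map3k14 (-1.47), which act in the kinase cascades above the IkB kinases. At 6 h they were Tlr4 (-1.26), the lipid A receptor, and Tab1 (-1.06). Nfkb1 at 2.64 and Rel at 2.51 thus rose less than Nfkbia and Tnip3 at 1 h and more than any kinase gene of the list.

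Genes whose wild-type course was most like that of each member were ranked by Pearson's r over 20 means (4 series at 5 times, each series centred), among 4077 genes. The 20 points share libraries and depth, so the values are descriptions. Nearest to Nfkb1 were Rhog (0.97), Dyrk2 (0.96), Kpna3 (0.95), Denr (0.95) and Cdc42ep2 (0.95), with Rel at rank 8 (0.95) and Rela at rank 207 (0.70). Nearest to Rel were Sowahc, Icam1, Tnfaip2, Clic4 and Il1a (0.98 to 0.97), with Rela at rank 88 (0.85). Nearest to Rela were Rgs1, Cxcl1, Ppp1r15a, Sdc4 and Spryd7 (0.96). Icam1, an adhesion molecule, had medians of 2.77, 112, 102, 68.0 and 13.8 RPKM over the 5 times, high from 0.5 to 2 h as Rel was. Cxcl1, a chemokine, had 0.105, 44.6, 28.9, 6.00 and 0.980, highest at 0.5 h as Rela was.

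In the Nfkb1 series the targeted gene came first. Nfkb1 RNA was not lost from the libraries labelled Nfkb1-/-. At 0 h it lay at 0.703, 2.57 and 2.53 RPKM in replicates 1, 2 and 3 labelled Nfkb1-/- and at 1.33, 2.25 and 2.29 in wild type. The groups overlapped, and in both the low value was replicate 1. Since the labels do not give the removed part, and 1 value covers the whole span, Nfkb1 RNA neither checks nor contradicts the genotype, which is used below as labelled.

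Under lipid A Nfkb1 RNA was present at every time in the libraries labelled Nfkb1-/-, and at 6 h its values there were above wild type. At 0.5 h it lay at 2.49, 9.27 and 7.48 RPKM against 3.54, 11.3 and 7.77 in wild type. At 1 h it lay at 7.92, 21.3 and 16.1 against 8.77, 24.0 and 17.1, and at 2 h at 6.16, 12.7 and 12.1 against 9.35, 10.5 and 11.3. The groups overlapped at each of these times. At 6 h the libraries labelled Nfkb1-/- held 7.75, 13.8 and 11.8 RPKM against 4.67, 6.67 and 7.53, so that all 3 were above all 3 wild types, as were 7.47% of the 4523 genes tested, with means of 11.1 ± 3.1 (SD, n = 3) and 6.29 ± 1.47. The difference was 0.76 ± 0.49 (adjusted p 1.0, when 0.398% of genes were called) and 0.76 ± 0.20 with the replicate block at each time (adjusted p 0.024, when 7.52% were called). Without replicate 1 of both genotypes and with that block it was 0.80 ± 0.14 (adjusted p 0.013, 10.1% called). The test of the 6 h response itself, 6 h against 0 h compared between genotypes, gave 0.87 ± 0.69 (adjusted p 1.0, when 0.0221% of genes were called).

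Rela was below wild type in all 3 libraries labelled Nfkb1-/- at 0.5 and 2 h. At 0.5 h the libraries labelled Nfkb1-/- held 4.32, 8.05 and 8.98 RPKM and wild type 9.81, 12.7 and 13.1. At 2 h the values were 3.84, 4.37 and 5.57 against 8.25, 7.63 and 7.52. At both times the groups did not overlap, whereas they overlapped at 0, 1 and 6 h. Of all genes 2.01% lay wholly below wild type at 0.5 h and 5.77% at 2 h. The difference at 0.5 h was -0.75 ± 0.27 (adjusted p 1.0, when 0.0663% of genes were called). At 2 h it was -0.72 ± 0.27 (adjusted p 0.81, 0.442% called), and -0.72 ± 0.18 with the replicate block at each time (adjusted p 0.029, 4.2% called). By 6 h the means were 3.96 ± 0.30 and 3.93 ± 0.60 RPKM (SD, n = 3).

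Averaged over the 5 times Rela differed by -0.40 ± 0.12 (adjusted p 0.15, when 1.41% of 4523 genes were called), and same-numbered pairs were lower in 12 of 15. With the replicate block the value was -0.40 ± 0.09 (adjusted p 0.0059, 5.84% called) and with the block at each time -0.40 ± 0.08 (adjusted p 0.0030, 12.7% called). Without replicate 1 of both genotypes it was -0.29 ± 0.06 with the block at each time (adjusted p 0.011, 16.7% called). Rel, at -0.38 ± 0.28 (adjusted p 1.0), was lower in 14 of 15 same-numbered pairs, and reached adjusted p 0.011 and 0.0079 with the 2 blocks. For both genes the 15 pairs are 3 replicate numbers seen at 5 times, so they are not independent. How many of all genes had as many lower pairs was not counted. Leaving out Nfkb1-/- replicate 1 alone turned the Rel difference to 0.12 (adjusted p 0.79), and leaving out replicate 1 of both genotypes left it at -0.29 (adjusted p 0.36, and 0.032 with the block at each time). That replicate held 0.423, 2.31, 3.93, 3.03 and 1.69 RPKM of Rel over the course, against 1.57 to 13.6 RPKM in the other libraries labelled Nfkb1-/-, and wild type replicate 1 was also low, at 1.01, 4.13, 5.62, 5.77 and 1.90 RPKM. Nfkb1 itself averaged 0.04 ± 0.22 (adjusted p 1.0). Neither the response of a member nor its level at a single time was called without the block. Of all genes 0.0221% were called for the response at 0.5 h and 0.0884% at 1 h, and 2 of the 15 values at single times, Rela at 0.5 and 2 h, had an unadjusted p under 0.05. So did 45 genes that were lower at 0.5 h and 124 at 2 h, of 4523.

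**Figure D2:**
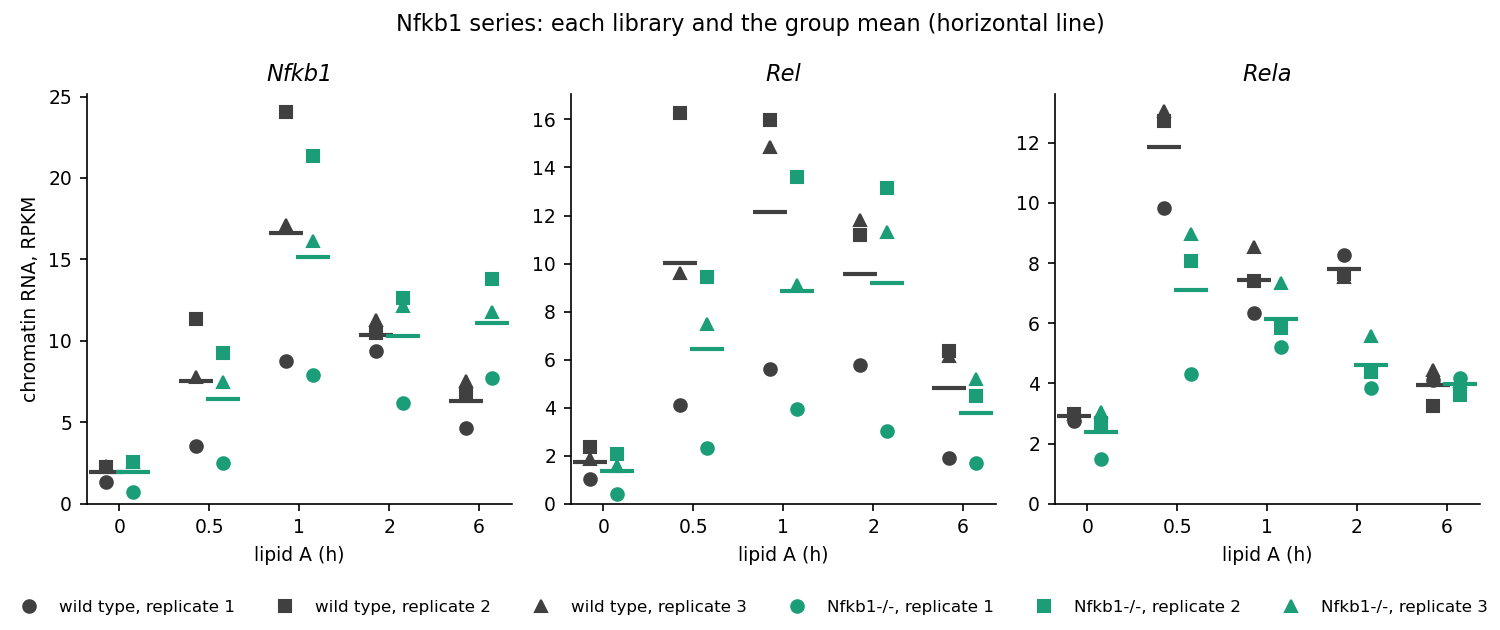
Chromatin RNA of the 3 genes in each library of the Nfkb1 series, in RPKM by hour of lipid A, with symbols for replicates and horizontal lines for the mean of 3. Nfkb1 at 6 h is higher in all 3 libraries labelled Nfkb1-/- (mean 11.1 against 6.29 RPKM), and Rela at 0.5 and 2 h is lower in all 3.

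In the Nfkbiz series, where IkBz is the targeted product and Nfkbiz RNA was not analysed here, Rel had the largest differences of the 3 members. The labelled knockout held less Rel than wild type at 1 h and more at 6 h. At 0 h Rel lay at 3.03 and 2.29 RPKM in Nfkbiz-/- (replicates 1 and 2) against 2.35 and 2.27 in wild type, and at 0.5 h at 12.3 and 11.5 against 18 and 10.7. At 1 h it lay at 8.02 and 7.98 against 17.9 and 15.4, and at 2 h at 11.4 and 11.4 against 15.3 and 13.1. At 6 h the values were 12.5 and 14.3 against 5.97 and 9.29. Both wild-type libraries thus held less Rel at 6 h than at 1 h, while both Nfkbiz-/- libraries held their highest value at 6 h, and the groups did not overlap at 1, 2 and 6 h. With 2 libraries a group this was common: 29.2% of all genes lay wholly below wild type at 1 h and 38% at 2 h, and 14.8% lay wholly above it at 6 h.

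The difference in Rel was -1.01 ± 0.24 at 1 h (adjusted p 0.069, when 0.942% of 4885 genes were called). With the replicate block its adjusted p was 0.037 (2.72% called) and with the block at each time 0.021 (6.02% called). At 6 h Rel was higher by 0.80 ± 0.24 (adjusted p 0.033, when 4.75% of genes were called higher and 20.6% in either direction). This call was lost under 6 alternatives, with an adjusted p of 0.059 without a filter, 0.092 with 6 h fitted alone and 0.13 to 0.29 without Nfkbiz-/- replicate 1, Nfkbiz-/- replicate 2 or wild type replicate 1. With a spread shared by the 4 series the adjusted p was 1.0. In the wild types of the other series Rel at 6 h ranged from 1.90 to 12.9 RPKM, so that 1 of the 2 Nfkbiz-/- values lay within that range. The difference at 6 h less that at 1 h, a contrast chosen after the values were seen, was 1.81 ± 0.34 for Rel (adjusted p 0.0072, 3.36% of genes called). It was 1.91, 1.71 and 1.41 without Nfkbiz-/- replicate 1, Nfkbiz-/- replicate 2 or wild type replicate 1 (adjusted p 0.17, 0.24 and 0.11). The 1 h response against 0 h differed by -1.17 ± 0.34 (adjusted p 0.46), and the 6 h response by 0.64 ± 0.34 (adjusted p 0.39, when 3.95% of genes were called).

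Nfkb1 and Rela differed less than Rel in Nfkbiz-/-, and neither was called at any time without a block. Nfkb1 lay at 9.71 and 9.71 RPKM at 2 h against 12.3 and 11.6, and at 5.03 and 5.0 at 6 h against 6.34 and 6.58. Those groups did not overlap, as for the 38% of all genes that lay wholly below wild type at 2 h and 52.4% at 6 h, and the differences of -0.28 ± 0.25 and -0.34 ± 0.25 gave adjusted p 0.64 and 0.33, with 0.030 at 6 h under the block at each time, when 44.9% of genes were called. At 1 h Nfkb1 was at 22.6 and 20.9 RPKM against 22.7 and 22.0. Rela lay at 6.77 and 7.68 RPKM at 2 h against 5.29 and 6.55, a difference of 0.27 ± 0.19 (adjusted p 0.54), and at 4.74 and 4.53 at 6 h against 4.18 and 4.15, when 16.9% and 14.8% of all genes lay wholly above wild type. Averaged over the course no member was called, with differences of -0.09 ± 0.11 for Nfkb1, -0.11 ± 0.11 for Rel and 0.08 ± 0.09 for Rela, when 32% of genes were called. Of the 27 pathway genes, 5 were called on that average: Tnfrsf1b, a TNF receptor (-1.02), Tnip3 (-0.88), Nfkbia (-0.67) and Hdac3, a deacetylase of RelA (-0.24), were lower, and Tnip2, a partner of A20 (0.30), was higher.

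**Figure D3:**
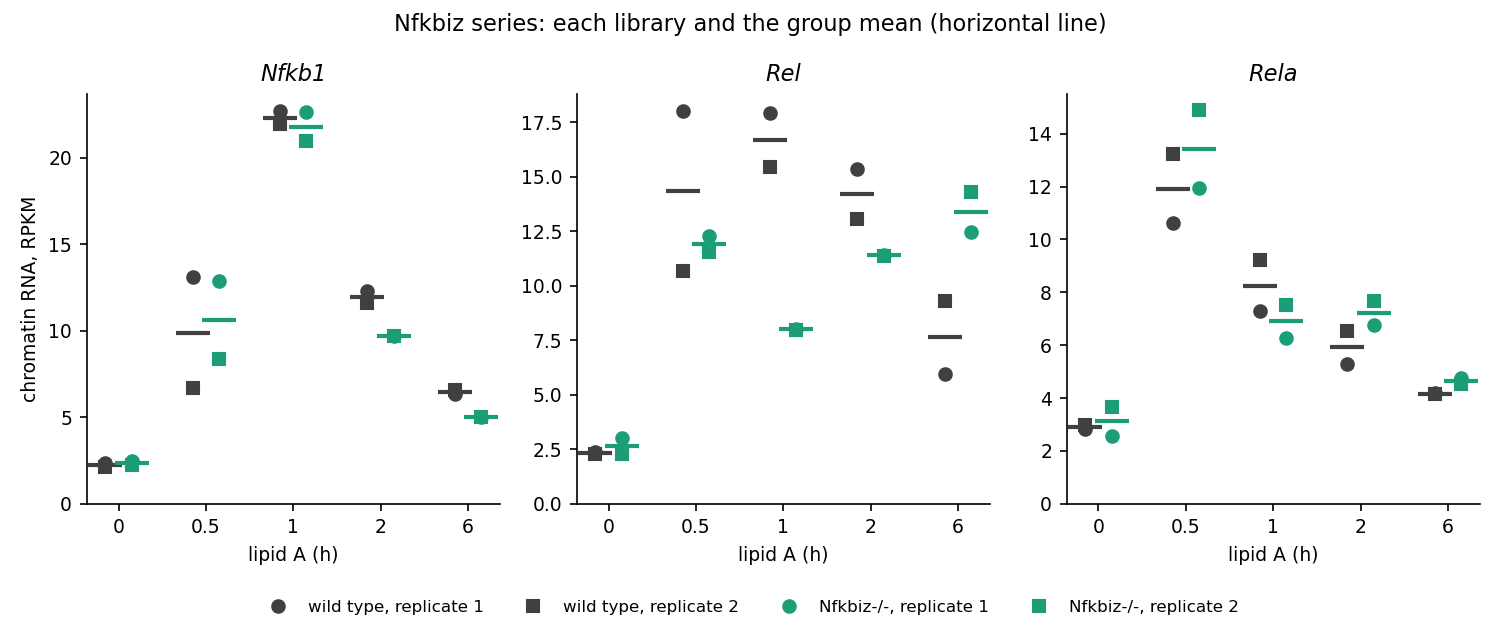
Chromatin RNA of the 3 genes in each library of the Nfkbiz series, in RPKM by hour of lipid A, with symbols for replicates and horizontal lines for the mean of 2. Rel in Nfkbiz-/- is below wild type at 1 h (8.00 against 16.7 RPKM on average) and above it at 6 h (13.4 against 7.63).

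No member was called in the Nfkbid or Bcl3 series by limma, at any time, on average or in its response, and none had an unadjusted p under 0.05. Among all genes tested, 0% were called at each time in either series. In the Nfkbid series, where Nfkbid RNA was not analysed here, the 15 differences ranged from -0.13 to 0.28. The groups overlapped at every time for every member. Their standard errors were 0.60 for Nfkb1, 0.67 for Rel and 0.95 for Rela, and replicate 1 held 13.5 to 47.8 RPKM of Rela over both genotypes while the others held 2.83 to 14.4. With the replicate block, or without replicate 1, no member was called either.

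In the Bcl3 series the targeted gene was not lower. Bcl3 RNA, averaged over the course, was higher by 1.10 in the libraries labelled Bcl3-/- (adjusted p 0.0033, when 0.0422% of genes were called). The removed part is not given in the labels and the value covers the whole span, so Bcl3 RNA does not check the genotype, and directions below are those of the libraries labelled Bcl3-/-. The 3 members lay low at 0.5 h: Nfkb1 at 5.45 and 9.62 RPKM against 12.6 and 9.74, Rel at 7.70 and 12.4 against 16.6 and 13.0, and Rela at 8.30 and 12.4 against 12.6 and 13.7. The groups did not overlap there, as for 10.7% of all genes in the same direction, and the differences were -0.58 ± 0.34, -0.56 ± 0.35 and -0.35 ± 0.28 (adjusted p 1.0 for each). At 6 h Rel was at 6.78 and 8.82 RPKM against 5.83 and 6.88. In all 3 genes the lower Bcl3-/- value at 0.5 h was that of replicate 1, a library of 17.6 M reads where the other 3 had 33.8 to 41.1 M; the part of depth in this was not tested. Without replicate 2 of Bcl3-/- all 3 members were called on average, beside 69.3% of all genes, and 5 of the 15 values at single times were called, beside 47.3% of genes at 0.5 h and 35.9% at 2 h.

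In polyA RNA of J2 macrophages the knockout libraries held less Nfkb1 than wild type after 2 h of lipid A, a difference that the main fit did not call. Unstimulated, Nfkb1 lay at 22.8 RPKM in wild type, at 21.9 in Nfkb1-/- and at 14.6 and 12.4 in Nfkb1-/-, Nfkb2-/-. After 2 h of lipid A it lay at 145 RPKM in wild type, 40.4 in Nfkb1-/- and 37.4 and 32.1 in Nfkb1-/-, Nfkb2-/-. Nfkb1 RNA was thus present at both times in every knockout library, and the wild type alone passed 100 RPKM. The 2 h value differed from wild type by -1.83 ± 0.25 in Nfkb1-/- (unadjusted p 0.0017, adjusted p 0.58) and by -2.05 ± 0.22 in Nfkb1-/-, Nfkb2-/- (unadjusted p 0.00061, adjusted p 0.22). The rise from 0 to 2 h was 2.65 ± 0.25 in wild type, 0.87 ± 0.25 in Nfkb1-/- and 1.33 ± 0.18 in Nfkb1-/-, Nfkb2-/-. The differences of these rises from wild type were -1.78 ± 0.35 and -1.32 ± 0.30 (adjusted p 1.0 for both). The fit had 2 residual degrees of freedom, both from Nfkb1-/-, Nfkb2-/-, and the single libraries were assumed to vary like them. Even the change with lipid A in wild type was not called by the fit for any gene. It called 0% of 6620 genes in every comparison of genotypes, and before adjustment 75 genes were below wild type and 117 above it in Nfkb1-/- at 2 h with p under 0.05.

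Rel in J2 cells was also highest in wild type at 2 h. Unstimulated Rel lay at 5.20 RPKM in wild type, 6.17 in Nfkb1-/- and 5.04 and 6.32 in Nfkb1-/-, Nfkb2-/-, and at 2 h at 16.6, 11.8, and 7.85 and 9.56. At 2 h both libraries of Nfkb1-/-, Nfkb2-/- were below the others, by -0.90 ± 0.26 from wild type (unadjusted p 0.024, adjusted p 0.68). For Nfkb1-/- the 2 h difference was -0.48 ± 0.30 (adjusted p 1.0). Rela went from 29.4 to 38.2 RPKM in wild type, from 23.8 to 33.8 in Nfkb1-/-, and from 30.8 and 24.6 to 39.5 and 36.0 in Nfkb1-/-, Nfkb2-/-. Its 2 h differences from wild type were -0.18 ± 0.26 and -0.02 ± 0.22 (adjusted p 1.0 for both).

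**Figure D4:**
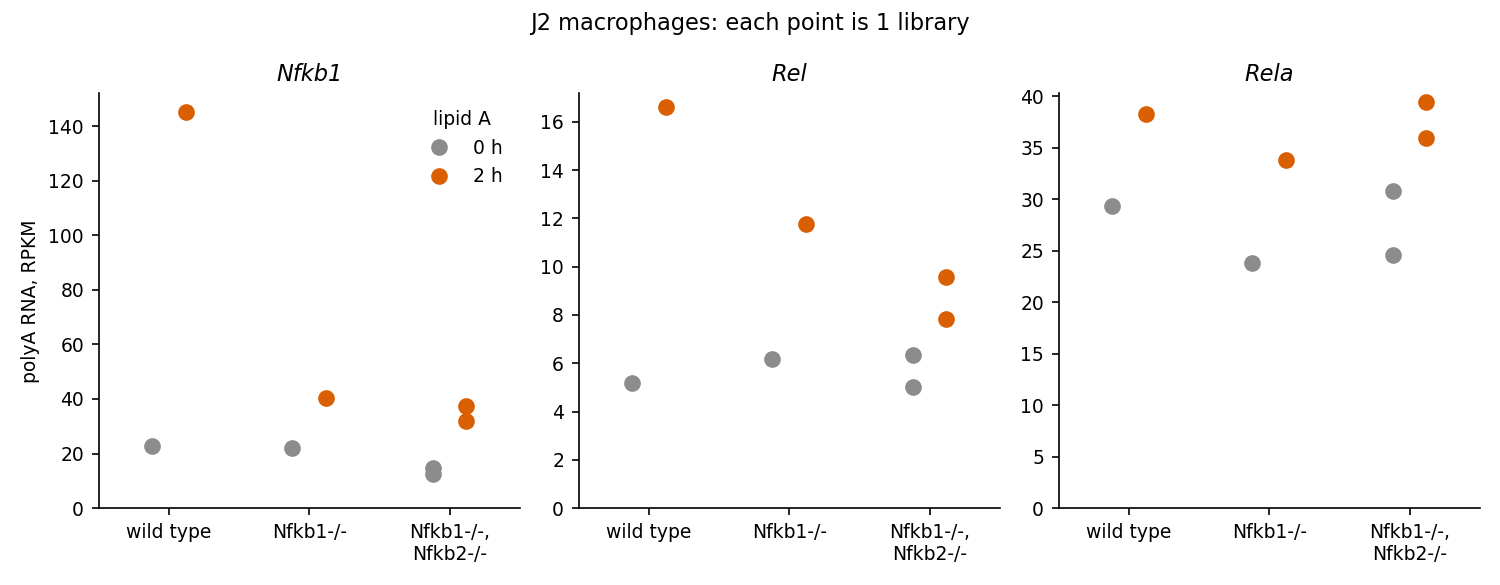
PolyA RNA of the 3 genes in J2 macrophages of 3 genotypes at 0 and 2 h of lipid A, in RPKM, with 1 point per library. Nfkb1 at 2 h is 145 RPKM in wild type and 32.1 to 40.4 RPKM in the 3 knockout libraries, while Rela lies between 33.8 and 39.5 RPKM in all 4 libraries at 2 h.

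The remaining conditions had 1 library each and no test. Pretreatment with an ERK inhibitor, an agent the labels do not name, was set against DMSO at 15 min steps. In DMSO the values of Rel and Rela had risen more than that of Nfkb1 at 15 min. At 0, 15, 30 and 60 min Nfkb1 lay at 2.25, 3.33, 10.7 and 27.2 RPKM, Rel at 1.85, 6.57, 11.9 and 15.4, and Rela at 2.27, 7.42, 7.53 and 6.29. The ratio of 15 min to 0 min was 3.55 for Rel, 3.27 for Rela and 1.48 for Nfkb1. These values average over whole spans, of 29.24, 10.6 and 106.9 kb in that order. The part of span length in this difference was not tested. With the inhibitor Nfkb1 lay at 2.23, 3.13, 8.17 and 22.3 RPKM, Rel at 2.43, 6.50, 7.51 and 15.0, and Rela at 2.47, 6.80, 8.47 and 7.39. The ratio of inhibitor to DMSO was 0.76 for Nfkb1, 0.63 for Rel and 1.12 for Rela at 30 min, when 5.29% of 1719 genes differed by at least 2-fold. At 60 min it was 0.82, 0.98 and 1.17.

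Under TNFa chromatin RNA of Rel and Rela had fallen back by 1 h, and that of Nfkb1 stayed up. The ratio of 1 h to 0 h was 1.09 for Rel, 1.24 for Rela and 3.19 for Nfkb1. Over 0, 0.5, 1, 2 and 6 h Nfkb1 lay at 1.68, 7.03, 5.36, 5.84 and 3.82 RPKM, Rel at 1.5, 6.32, 1.63, 2.16 and 2.14, and Rela at 2.18, 5.84, 2.71, 3.92 and 4.11. All 3 genes were highest at 0.5 h. Rel was back near its start at 1 h, at 1.63 RPKM, while the 10 wild-type libraries given lipid A in other series lay between 5.62 and 17.9 at that time. At 6 h Nfkb1 was at 2.28 times, Rela at 1.88 times and Rel at 1.42 times its start.

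In polyA RNA Rel was likewise lower under TNFa than under lipid A from 1 h on, and Nfkb1 was highest at the last time. Under lipid A Rel lay at 9.41, 14.0, 73.6, 72.3 and 15.9 RPKM over 0, 0.5, 1, 2 and 6 h, and under TNFa at 16.5, 33.8, 11.6 and 11.8 from 0.5 to 6 h. At 2 h the lipid A value was 6.24 times that under TNFa, when 7.41% of genes differed by at least 2-fold. Nfkb1 lay at 35.2, 33.4, 53.8, 157 and 166 RPKM under lipid A and at 37.0, 50.7, 80.5 and 108 under TNFa. Its chromatin RNA under lipid A had a median of 6.63 RPKM at 6 h against 19.7 at 1 h. Rela lay at 60.9, 80.9, 105, 121 and 103 RPKM under lipid A and at 77.3, 93.1, 92.9 and 115 under TNFa, with no value more than 1.99 times its start.

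**Figure D5:**
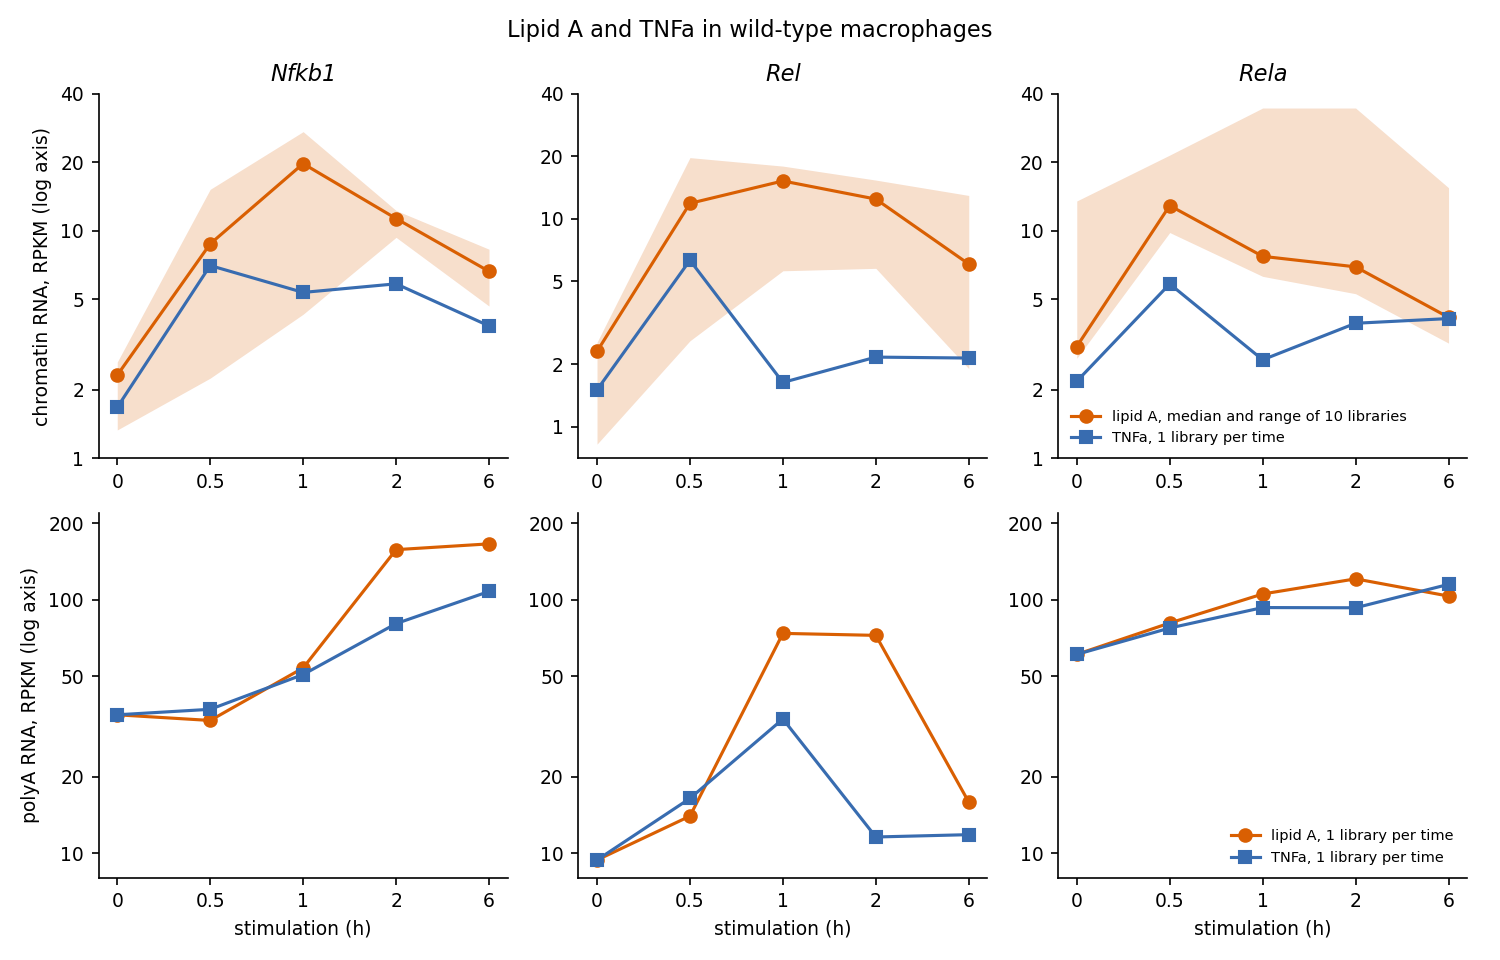
Chromatin RNA (upper row) and polyA RNA (lower row) of the 3 genes by hour of lipid A or TNFa, in RPKM on log axes; shading is the range of 10 wild-type libraries, and all other points are 1 library. Rel under TNFa is 1.63 RPKM in chromatin at 1 h and 11.6 RPKM in polyA RNA at 2 h, and polyA Nfkb1 is highest at 6 h under both stimuli.

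Overexpression of IkBz went with a lower Nfkb1 value after TNFa and small differences elsewhere. Nfkb1 lay at 34.6, 154 and 212 RPKM in control cells (unstimulated, 2 h TNFa and 2 h lipid A) and at 32.5, 84.5 and 180.4 in overexpressing cells. The ratio of overexpressing to control cells was 0.94, 0.55 and 0.85, and 4.17% of genes differed by at least 2-fold after TNFa. Rel lay at 6.18, 11.4 and 50.5 RPKM against 5.55, 12.4 and 42.3, and Rela at 32.1, 73.5 and 77.2 against 35.7, 63.1 and 76.6. Rel and Rela ratios thus stayed between 0.84 and 1.11. The control value of Nfkb1 after 2 h of TNFa, 154 RPKM, stands beside 80.5 RPKM at the same time in the other polyA course.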

How the data were processed

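The authors deposited 1 table of RPKM values for 15196 genes in 113 chromatin and 23 polyA libraries (per the labels, whose extraction text describes chromatin for both). Per the submitters' processing notes HISAT2, SAMtools and mm9 were used; versions and the counting rule are not given in the sources used here. Libraries came from a stranded kit, per the labels' protocols. Gene starts and ends are from the deposited table. Depth was recovered from values worth up to 30 reads, of which 94.6% to 98.7% lay within 0.02 of a whole number in chromatin; the length behind polyA values is not stated, so genes are not compared there. Depth of the 9 polyA libraries of the lipid A and TNFa course was not recovered.

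Values were analysed as log2(RPKM + 0.5) with limma 3.58.1 in R 4.3.3 (lmFit, eBayes with trend), with Benjamini-Hochberg adjustment per contrast and a threshold of 0.05. A gene was tested if it held 1 RPKM or more in a minimum number of libraries of the fit. This minimum was 3 or 2 by series, 2 of the 50 in the wild-type course and 1 in J2. The wild-type course pooled 50 libraries with the series as a term; each knockout series had 1 fit with a mean per genotype and time. The added 0.5 understates changes of low values. Samples were grouped by their labels. Replicate numbers are shared between genotypes, and the correlation of their residuals, number by number, was 0.61 to 0.92 (Nfkb1 series), 0.45 to 0.73 (Nfkbiz), 0.89 to 0.97 (Nfkbid) and 0.27 to 0.76 (Bcl3), so fits with the replicate number as a block are given where they change a call. Alternatives were other pseudocounts (0.1 and 1), a filter of 3 RPKM or none, centring, blocks, a shared spread and leaving out libraries. The fits were run on simulated data whose noise was independent between libraries, unlike that of same-numbered libraries here. That run does not check the calls made with a block. The members and gene lists were chosen with earlier results of these data known. Named pathway genes are the 2 highest and 2 lowest of those called at 1 and 6 h and any called in a knockout series on average; like genes are the 5 with the highest r. Part of the macrophage marker list is not reported here.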

Additional observations from a re-analysis of the deposited data

Results flagged for a closer look

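Among the 10 wild-type libraries, a highest or lowest value far from the rest was looked for in 15 sets (3 genes at 5 times). The sets share libraries and are not independent of each other, so no chance rate is given. Such a value was found in 6 sets. For Rela it was the same library number at every time: replicate 1 of the Nfkbid series was the highest, at 13.5, 21.5, 34.5, 34.5 and 15.4 RPKM at 0, 0.5, 1, 2 and 6 h. The next highest values were 3.43, 13.7, 9.21, 8.25 and 5.21 RPKM. In the same libraries Malat1 lay at 6.92 to 12.9 RPKM, and whether that bears on Rela was not tested. For Nfkb1 the lowest value at 0 h, 1.33 RPKM in replicate 1 of the Nfkb1 series, lay apart from the next at 2.10 RPKM.

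For Rel in the Nfkbiz series the difference from wild type at 6 h exceeded that at 1 h by 1.81 ± 0.34 (adjusted p 0.0072, limma; 8.02 and 7.98 against 17.9 and 15.4 RPKM at 1 h, and 12.5 and 14.3 against 5.97 and 9.29 at 6 h). This contrast was chosen after the values were seen, and 3.36% of all genes were called in it. The call was lost with a spread shared by the 4 series (adjusted p 1.0) and without Nfkbiz-/- replicate 1, Nfkbiz-/- replicate 2 or wild type replicate 1 (adjusted p 0.17, 0.24 and 0.11).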

How the results depend on the processing

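The rises of Nfkb1 and Rel at all 4 times of the wild-type course, and of Rela at 0.5, 1 and 2 h, kept direction and call in all 20 alternatives. Rela at 6 h was called when centred (0.74), with the replicate block (0.33), leaving out the Nfkbid series (0.36) and, with each of the 10 replicates left out over its whole course, ranged from 0.30 to 0.37. In the Nfkb1 series Rela on average was called when centred (-0.37), with the replicate block (-0.40) and with it at each time (-0.40), and ranged from -0.52 to -0.25 over replicates left out. Rel on average was called with both replicate blocks (-0.38) and ranged from -0.79 to 0.12, the last without Nfkb1-/- replicate 1. With the block at each time Rela at 2 h (-0.72; range -0.85 to -0.57) and Nfkb1 at 6 h (0.76; 0.58 to 0.99) were called. Members called there numbered 1 when centred and 2 with either block on average, and 2 at single times with the block at each time. With a replicate left out they numbered 0 to 1 on average and 0 at single times. Of all genes 1.79% were called on average when centred, 5.84% with the replicate block and 12.7% with it at each time. The block at each time called 4.2% of genes at 2 h and 7.52% at 6 h. Without replicate 1 of both genotypes and with the block at each time, an alternative chosen after seeing the data, Rela (-0.29) and Rel (-0.29) were called on average, and 2 members' values at single times. Of all genes that alternative called 16.7% on average, 4.48% at 2 h and 10.1% at 6 h.

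In the Nfkbiz series Rel at 1 h was called with both replicate blocks (-1.01, range -1.11 to -0.91). The replicate block called 2.72% of all genes at 1 h and 34.1% at 6 h, and the block at each time 6.02% and 44.9%. Rel at 6 h (0.80) was not called without a filter, with a shared spread or with each time fitted alone (range 0.50 to 1.10). Its difference between 6 h and 1 h (1.81) was not called with a shared spread (range 1.41 to 2.21). Both calls were also lost without Nfkbiz-/- replicate 1, without Nfkbiz-/- replicate 2 and without wild type replicate 1. Members called at single times numbered 0 without a filter, with a shared spread and with each time fitted alone. They numbered 2 with the replicate block and 3 with it at each time. In the Bcl3 series they ranged from 0 to 3 on average and 0 to 5 at single times. The 3 and the 5 came only from the fit without replicate 2 of Bcl3-/-, which left 1 Bcl3-/- library at each time. That fit called most genes tested on average, and a large share of them at 0.5 and 2 h. These counts therefore do not set the members apart from other genes. In J2 cells, without a filter, Nfkb1 was called between genotypes at 2 h (-1.83 and -2.05) and over time in wild type (2.65) and Nfkb1-/-, Nfkb2-/- (1.33), and Rel in wild type (1.58), when 2.09% to 39.2% of genes were called. The cause of these changes was not tested.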
